A study of Mus musculus with 4 samples.

Results

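The 26S proteasome is the protease of the cytosol and nucleus that degrades ubiquitin-tagged proteins, and its subunits were followed here in mouse lung after inhalation of hexamethylene diisocyanate (HDI), a reactive chemical used to make polyurethane coatings. All genes with a probe set of 1 platform symbol starting with Psma, Psmb, Psmc, Psmd or Psme and a digit were taken, which gave 42 of 8251 named genes and 53 of 12488 probe sets. Of these, 40 genes with 51 probe sets encode subunits, regulators or assembly chaperones of the complex. The other 2, Psmc3ip and Psme3ip1, encode proteins named for a proteasome subunit as partner and matched by the letters of their symbols alone, so they were set apart. The subunits fell into 14 genes of the 20S core, 3 of the immunoproteasome (Psmb8, Psmb9 and Psmb10), 6 of the 19S ATPases, 14 of the 19S non-ATPase proteins and 3 activators.

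Total RNA from whole lungs of the inbred mouse strain C57BL/6J, pooled within each group, was read on 4 single-colour oligonucleotide arrays, 1 for each pool. The groups were unexposed mice (the sample titled 0 h) and mice whose lungs were taken 6, 18 and 90 h after they breathed HDI as an aerosol of 10 mg/m3. No genetic change or other treatment is stated for any group, and neither the number of mice in a pool nor the length of exposure is given in the sources used here. Because each group is 1 array, there was no spread between replicates, no test was made, and a difference between pools cannot be told apart from a difference between arrays. The 3 comparisons with unexposed lung share the unexposed array. In a whole organ, fewer cells of a type and less RNA per cell cannot be told apart either.

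The 20S core is a barrel of stacked rings, with Psma proteins in the outer rings and Psmb proteins in the inner rings, where 3 of the beta subunits cut peptide bonds. Interferon-gamma and cells of the immune system replace these 3 by the immunoproteasome subunits, which favour peptides that fit MHC class I molecules. The 19S particle caps the barrel: its ring of Psmc ATPases unfolds substrates and threads them into the core, and its Psmd proteins bind ubiquitin chains and remove them. Subunit genes are known to be transcribed together, through the transcription factor NRF1 (gene Nfe2l1) when proteasome activity falls short, and in part through NRF2 (gene Nfe2l2), which its partner KEAP1 releases when electrophiles are present.

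Promoters of 6 subunits are printed, and the genes were chosen by their differences in these data. Psma5, Psmb3 and Psmd14 were furthest above unexposed lung at 18 h. Psmb6, Psmb8 and Psmb9 are catalytic subunits that differed in opposite directions at 6 and 18 h. Each line holds the 250 bases before the transcription start in RefSeq, build GRCm38.p6, written 5′ to 3′ on the gene's strand. Capitals mark any match, on either strand, to 1 of 5 patterns: TGACNNNGC (core of the antioxidant response element, which NRF1 and NRF2 bind), CCAAT, TTCNNNGAA (gamma activated site), and the cores of the interferon-stimulated response element and of the heat shock element.
Psma5 (chr3:108256676-108256925, plus strand): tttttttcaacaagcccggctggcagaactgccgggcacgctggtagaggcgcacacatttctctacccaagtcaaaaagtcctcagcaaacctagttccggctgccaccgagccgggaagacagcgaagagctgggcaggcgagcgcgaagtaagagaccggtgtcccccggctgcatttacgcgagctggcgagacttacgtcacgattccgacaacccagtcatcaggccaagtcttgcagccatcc
Psmb3 (chr11:97703184-97703433, plus strand): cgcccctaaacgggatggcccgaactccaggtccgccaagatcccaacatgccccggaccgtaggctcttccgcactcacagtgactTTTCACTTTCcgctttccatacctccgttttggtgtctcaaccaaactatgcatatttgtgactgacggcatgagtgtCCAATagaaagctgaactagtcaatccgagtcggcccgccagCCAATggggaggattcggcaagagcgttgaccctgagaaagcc
Psmd14 (chr2:61711444-61711693, plus strand): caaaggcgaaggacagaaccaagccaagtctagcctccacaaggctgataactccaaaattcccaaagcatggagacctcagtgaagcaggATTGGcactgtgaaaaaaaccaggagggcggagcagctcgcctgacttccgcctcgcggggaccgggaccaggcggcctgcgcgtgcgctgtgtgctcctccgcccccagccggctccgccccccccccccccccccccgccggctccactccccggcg
Psmb6 (chr11:70525107-70525356, plus strand): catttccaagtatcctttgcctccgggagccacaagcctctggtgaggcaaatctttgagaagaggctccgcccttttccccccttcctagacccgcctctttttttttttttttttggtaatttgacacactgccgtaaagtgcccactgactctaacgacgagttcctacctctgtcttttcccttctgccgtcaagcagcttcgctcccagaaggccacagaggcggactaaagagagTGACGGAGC
Psmb8 (chr17:34197945-34198194, plus strand): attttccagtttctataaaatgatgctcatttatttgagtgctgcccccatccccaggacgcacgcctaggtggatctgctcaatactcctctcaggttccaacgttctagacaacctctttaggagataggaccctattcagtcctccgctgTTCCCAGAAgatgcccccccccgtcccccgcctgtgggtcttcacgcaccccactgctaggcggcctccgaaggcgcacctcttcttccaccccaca
Psmb9 (chr17:34187331-34187580, minus strand): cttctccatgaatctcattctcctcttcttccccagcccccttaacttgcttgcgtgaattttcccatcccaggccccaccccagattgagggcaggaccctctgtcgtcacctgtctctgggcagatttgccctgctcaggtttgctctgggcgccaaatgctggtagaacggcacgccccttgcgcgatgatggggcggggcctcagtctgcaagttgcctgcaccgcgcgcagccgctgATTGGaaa

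In these windows Psma5 held none of the 5 patterns. Psmb3 held 2 CCAAT boxes and 1 interferon-stimulated response element core, TTTCACTTTC on the printed strand, while Psmd14 and Psmb9 each held CCAAT on the other strand. Psmb6 held TGACGGAGC in the last 9 bases before the start, and Psmb8 held TTCCCAGAA. Of the 40 subunits, 34 were found in the RefSeq table of promoters, which also gives the 50 bases after the start, and the shares below refer to the whole window of each gene. TGACNNNGC was found for 6 of 34 subunits (Psmb5, Psmb6, Psmc6, Psmd9, Psmd12 and Psme4), which is 17.6%, against 14.0% of 27025 genes. CCAAT was found for 13 of 34 subunits, 38.2%, against 41.1% of all genes, and 6 of the 13 belong to the 20S core. The interferon-stimulated response element core was found for 4 subunits, Psmb3, Psmd4, Psmd9 and Psme1, which is 11.8% against 3.99%. TTCNNNGAA was found for 2 subunits, Psmb8 and Psmd2, 5.88% against 9.55%, and the heat shock element for 0 against 0.662%. No pattern contains another, and a match describes letters, not a bound site.

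The 4 arrays were alike in median signal, with deposited medians between 97.7 and 108 units, and scale factors between 0.970 and 1.07 brought them to 1 level. The ratio of 3' to 5' signal, a sign of RNA integrity, was 1.21, 1.16, 1.12 and 1.22 for Gapdh and 1.5, 1.30, 1.36 and 1.55 for beta-actin in the unexposed, 6, 18 and 90 h pools. Both ratios were lower in the 6 and 18 h pools, where most subunits were higher, than in the unexposed and 90 h pools, and their part in the results was not tested. The labelled tissue showed its markers: surfactant protein gene Sftpc read 9871, 9436, 9138 and 9248 scaled units in the unexposed, 6, 18 and 90 h pools, and the club cell gene Scgb1a1 read 10632, 8908, 8361 and 8005. Sftpd, another surfactant gene, was at the floor in all 4 pools. Scaled values under 77.7 units were set to that floor. Of the 40 subunits, 36 were above it on all 4 arrays and 39 on at least 1. Psmd2, a large scaffold of the 19S base, was at the floor on all 4 arrays, at 36.0, 32.3, 28.6 and 31.3 units, so its lack of change says nothing. Probe sets of the same gene were compared with each other, leaving out those marked by a suffix in their name. Their disagreement gave a robust SD for the log2 difference of a single probe set from unexposed lung. It was 0.27 at 6 h, 0.26 at 18 h and 0.24 at 90 h, less than the spread between pairs of probe sets. Such a yardstick holds nothing of the spread between mice, between pools or between hybridisations. It also leaves out the suffix-marked probe sets that represented 7 subunits: Psma3, Psmb4, Psmb5, Psmb7, Psmc3, Psmd9 and Psmd12.

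By the median, proteasome transcripts were higher than in unexposed lung at 6 h, higher again at 18 h and close to the unexposed level at 90 h. The 3 immunoproteasome genes were below unexposed lung at 6 and 18 h. At 6 h Psme1, Psmd9, Psmd5 and Psmc5 were below it too, with log2 differences of -0.54, -0.28, -0.08 and -0.04. The median log2 difference of the compared subunits was 0.33 at 6 h, 0.63 at 18 h and 0.05 at 90 h, while that of all genes was -0.04, -0.01 and 0.03. At 6 h, 31 of 38 compared subunits were above unexposed lung, as were 45.4% of all genes, and 9 were at least 1.5-fold higher, as were 7.16% of all genes. None was at least 2-fold higher or lower, against 2.17% and 1.51% of all genes. The count of 9 came to 15 without scaling and to 4 with a pseudocount in place of the floor. At 18 h, 35 of 39 were above unexposed lung (48.2% of all genes), 23 were at least 1.5-fold higher (6.79%) and 4 at least 2-fold higher (1.59%). Without scaling, the median of all genes moved up by 0.10, 0.13 and 0.13 at 6, 18 and 90 h, and the class medians given below for 6 and 18 h kept their sign under each scaling tried. At 90 h no subunit of 39 was 1.5-fold away from unexposed lung in either direction, against 3.42% of all genes higher and 4.88% lower.

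**Figure D1:**
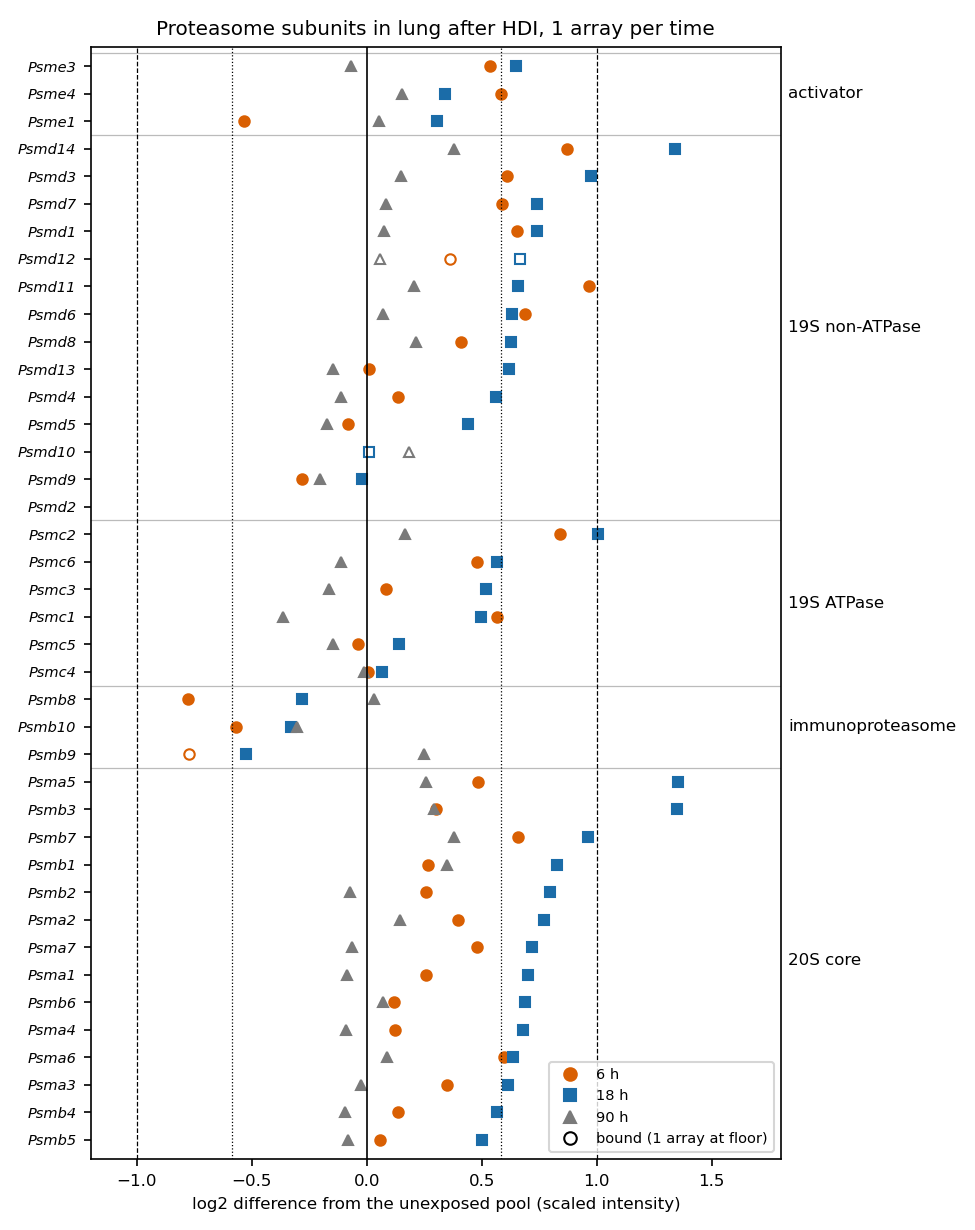
Log2 difference of scaled intensity from the unexposed pool (horizontal axis) for each of the 40 subunits, grouped by class; circles are the 6 h pool, squares 18 h, triangles 90 h, each 1 array with no error bar, and open symbols are bounds. Dotted and dashed lines mark 1.5-fold and 2-fold; the 18 h squares of all 14 core subunits lie right of 0.50, the 90 h triangles lie inside the dotted lines, Psmb8, Psmb9 and Psmb10 lie left of 0 at 6 and 18 h, and Psmd2 has no symbol.

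The outer ring of the core is built of Psma1 to Psma7, which gate the entry to the barrel. Psma5 read 242 units in unexposed lung, 339 at 6 h, 620 at 18 h and 290 at 90 h. It was 1.40-fold higher than unexposed at 6 h, 2.56-fold at 18 h and 1.20-fold at 90 h, the highest fold of any subunit at 18 h. The other 6 genes of this ring were closer to each other. Psma2 read 622, 819, 1060 and 689 units in the same order, and was 1.70-fold higher at 18 h. Psma6 read 479, 724, 742 and 508, and stood apart in having nearly all of its difference at 6 h already, 1.51-fold against 1.55-fold at 18 h. Psma4 read 323, 351, 517 and 304, so that its 6 h value lay near unexposed lung. Psma1, Psma3 and Psma7 were 1.63-fold, 1.53-fold and 1.65-fold higher at 18 h. All 7 outer-ring genes were at least 1.5-fold higher at 18 h and 1 of 7 at 6 h, against 6.79% and 7.16% of all genes.

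Among inner-ring genes that have no active site, Psmb3 read 428, 528, 1090 and 525 units in the unexposed, 6, 18 and 90 h pools. It was 1.23-fold higher at 6 h, 2.55-fold at 18 h and 1.23-fold at 90 h, so its high value belonged to the 18 h pool alone. Psmb2 read 344, 411, 598 and 327 and was 1.74-fold higher at 18 h. Psmb1 read 526, 632, 934 and 669 by its brighter probe set, 1.78-fold higher at 18 h. Its other probe set of like brightness read 508, 496, 558 and 625, with log2 differences of -0.04, 0.13 and 0.30, so the 18 h value of Psmb1 rests on 1 of 2 probe sets. Psmb4 read 575, 631, 852 and 538 and was 1.48-fold higher at 18 h, while its dimmer probe set read 218, 261, 377 and 201, a log2 difference of 0.79. Counting both rings, 12 of 14 core genes were at least 1.5-fold higher at 18 h and 2 of 14 at 6 h. Of all genes, 6.79% and 7.16% were. The medians of the core were 0.71 and 0.28.

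At 6 and 18 h the 3 catalytic beta subunits of the standard core were above unexposed lung. The 3 subunits that take their places in the immunoproteasome were below it. Psmb6 is the caspase-like subunit at position beta 1. It read 282 units in unexposed lung, 307 at 6 h, 455 at 18 h and 296 at 90 h. It was 1.09-fold higher at 6 h and 1.61-fold higher at 18 h. Its immune counterpart Psmb9 read 133, 63.8, 92.4 and 158. The 6 h value lay under the floor, so Psmb9 was at least 1.71-fold lower at 6 h and 1.44-fold lower at 18 h. Psmb7, the trypsin-like subunit at beta 2, read 347, 547, 677 and 452, and was 1.58-fold higher at 6 h and 1.95-fold higher at 18 h by a probe set with the suffix for a family of similar transcripts. Its counterpart Psmb10 read 487, 328, 388 and 394, and was 1.48-fold lower at 6 h and 1.26-fold lower at 18 h. Psmb5, the chymotrypsin-like subunit at beta 5, read 246, 255, 348 and 232, which is 1.04-fold and 1.42-fold higher at 6 and 18 h. Its counterpart Psmb8 read 411, 240, 339 and 420, and was 1.72-fold lower at 6 h and 1.21-fold lower at 18 h. In each pair the exposed pools at 6 and 18 h lay above the unexposed pool for the standard gene and below it for the immune gene, Psmb5 being read by its brighter probe set. The 6 h log2 differences of Psmb5 and Psmb6, 0.06 and 0.12, were smaller than the robust SD of a single probe set, 0.27.

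The gap between the partners, as the log2 difference of the immune gene minus that of the standard gene, was -0.89 at 6 h for Psmb9 and Psmb6, where it is a bound, and -1.21 at 18 h. For Psmb10 and Psmb7 it was -1.23 and -1.29, and for Psmb8 and Psmb5 it was -0.83 and -0.78. At 90 h the gap was 0.18 at beta 1, 0.11 at beta 5 and -0.68 at beta 2. Those at beta 1 and beta 5 are smaller than the robust SD of a single probe set, 0.24. That SD was taken without suffix-marked probe sets, to which those of Psmb5 and Psmb7 belong. The beta 5 pair carries a limit, because a second and dimmer probe set of Psmb5, without a suffix, read 99.6, 92.3, 75.8 and 84.8 and was lower at 18 h, with a log2 difference of -0.36. No level of 1 probe set was compared with that of another, so the arrays do not give the share of immunoproteasomes in any pool.

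**Figure D2:**
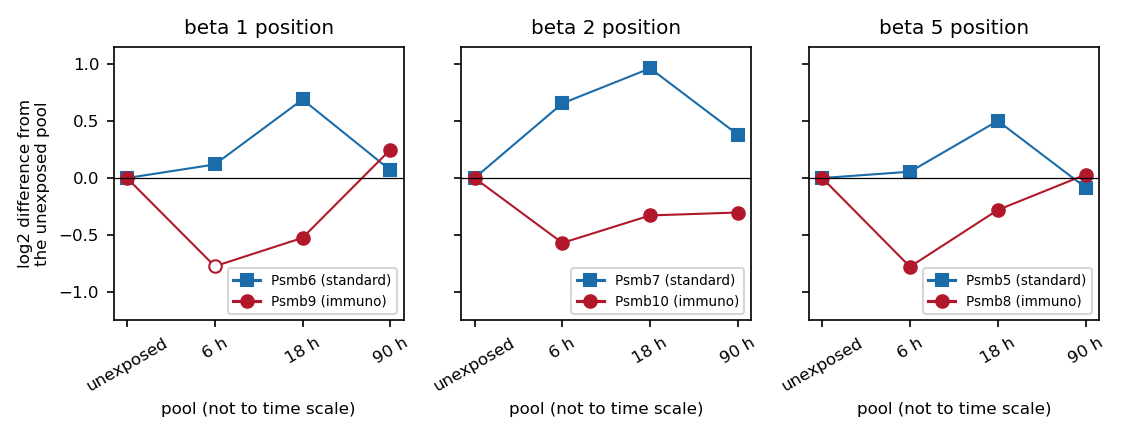
Log2 difference from the unexposed pool (vertical axis) over the 4 pools (horizontal axis, not to time scale) for the standard catalytic subunit (blue squares) and the immunoproteasome subunit (red circles) at each of 3 positions of the core; each point is 1 array, with no error bar, and the open circle is a bound. At 6 and 18 h the lines lie apart at every position, with the immunoproteasome subunit below. At 90 h it lies 0.18 above for Psmb9 with Psmb6, 0.11 above for Psmb8 with Psmb5 and 0.68 below for Psmb10 with Psmb7.

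All 3 immunoproteasome genes were lowest in the 6 h pool, as were 28.7% of all genes, and none was highest at 18 h, whereas all 14 core genes were highest at 18 h. Their median was -0.77 at 6 h and -0.33 at 18 h, and Psmb8 and Psmb9 were the 2 subunits at least 1.5-fold lower at 6 h, as were 6.06% of all genes. Genes of white blood cells, which carry much of the immunoproteasome of a tissue, were for the most part lower in these pools too, but not in every list. All 7 genes of a list for all white blood cells were below unexposed lung at 6 h and at 18 h, with summed levels of 2650, 1342, 1832 and 3252 units in the 4 pools. Ptprc, the leukocyte surface phosphatase CD45, read 331, 129, 162 and 345. All 6 compared genes of a B cell list were below unexposed lung at 6 and 18 h, the summed level being 2209, 1088, 1491 and 1561, and its marker Cr2 was at the floor on all arrays. All 7 compared genes of a list for MHC class II and dendritic cells were lower at 6 h, with summed levels of 7855, 5843, 6198 and 8463, and Ciita was at the floor throughout. At 18 h, 6 of the 7 were lower, and Fscn1, an actin-bundling protein, read 397, 101, 500 and 383, 3.92-fold lower at 6 h and 1.26-fold higher at 18 h. Of a T and NK cell list, 5 of 9 genes were at the floor on all arrays, and of the 4 compared 2 were below unexposed lung at 6 h and 4 at 18 h, with summed levels of 1083, 888, 832 and 754. Of a neutrophil list, 7 of 9 genes were below unexposed lung at 6 h and 6 of 8 at 18 h, with summed levels of 1854, 1630, 1427 and 1882. Its chemokine receptor gene Cxcr2 read 27.5, 151, 29.4 and 44.0, at least 1.94-fold higher at 6 h. A macrophage list, with 2 of 8 genes at the floor on all arrays, had 4 of 5 compared genes below unexposed lung at 6 h and at 18 h. All 6 compared at 90 h were above it, as were 3262 of 6061 among all genes. Its summed levels were 3983, 3201, 3183 and 4907. Of all genes, 54.6% were below unexposed lung at 6 h and 51.8% at 18 h. The part of these cells in the immunoproteasome values was not tested.

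Psmb9 and Psmb8 lie in the MHC region of chromosome 17, beside the genes of the peptide transporter that carries proteasome products into the endoplasmic reticulum. The order of genes there is H2-DMb1, Psmb9, Tap1, Psmb8 and Tap2, and Psmb9 and Tap1 start from opposite strands of a shared promoter region. Tap1 read 248, 170, 188 and 306 units, 1.46-fold lower at 6 h. Tap2 read 140, 93.9, 132 and 160, 1.49-fold lower at 6 h. Both had their lowest value at 6 h and their highest at 90 h, as did Psmb8 and Psmb9. Over 9 genes of MHC class I antigen processing, the median was -0.12 at 6 h and -0.16 at 18 h, and 0 of 9 were 1.5-fold away from unexposed lung. Irf1, which drives Psmb9 and Tap1 in response to interferon, read 434, 348, 395 and 447. The interferon response list had a median of -0.51 over 17 compared genes at 6 h and -0.17 over 16 genes at 18 h. At least 1.5-fold lower were 4 of 17 at 6 h and 3 of 16 at 18 h, against 6.06% and 6.11% of all genes. At both times 0 were at least 1.5-fold higher, against 7.16% and 6.79%. The furthest member of the list was Gbp2, an interferon-induced GTPase, at 250, 65.3, 116 and 237, at least 3.21-fold lower at 6 h. Irf7, another of the list, was also under the floor at 6 h, at least 2.01-fold lower.

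The 6 ATPases of the 19S base were not alike. Psmc2 read 198 units in unexposed lung, 355 at 6 h, 397 at 18 h and 223 at 90 h, 1.79-fold higher at 6 h and 2.0-fold at 18 h. Psmc6 read 500, 696, 740 and 463, and was 1.39-fold and 1.48-fold higher. Psmc1 read 194, 288, 274 and 151, 1.48-fold higher at 6 h and 1.29-fold lower than unexposed at 90 h, the lowest 90 h difference of any subunit. These 3 had their difference at 6 h already. Psmc3 read 450, 476, 644 and 401, 1.06-fold higher at 6 h and 1.43-fold at 18 h. A dimmer probe set of Psmc3 read 274, 298, 315 and 183, with log2 differences of 0.20 at 18 h and -0.59 at 90 h, and the mean over probe sets took the 18 h difference from 0.52 to 0.24. Psmc4 read 143, 143, 149 and 141, and Psmc5 462, 450, 509 and 417. The values of Psmc4 and Psmc5 stayed within 1.11-fold of unexposed lung in every pool. The median of the class was 0.28 at 6 h and 0.51 at 18 h, with 1 of 6 genes at least 1.5-fold higher at each time. Of all genes, 7.16% and 6.79% were that much higher.

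The lid of the 19S particle holds 8 of the Psmd proteins. All 8 were at least 1.5-fold higher at 18 h, against 6.79% of all genes, and 5 of 8 at 6 h, against 7.16%. Psmd14, the metalloprotease that cuts ubiquitin chains off substrates, read 191 units in unexposed lung, 350 at 6 h, 483 at 18 h and 248 at 90 h. It was 1.83-fold higher at 6 h, 2.53-fold at 18 h and 1.30-fold at 90 h. Psmd7, its structural partner, read 382, 574, 638 and 405, and was 1.5-fold and 1.67-fold higher at 6 and 18 h. Psmd3 read 232, 354, 455 and 257, 1.53-fold and 1.96-fold higher. These 3 were ordered alike, with unexposed and 90 h low, 6 h between and 18 h high. Psmd11, a lid subunit that joins the 19S particle to the core, read 408, 797, 642 and 471, and was 1.95-fold higher at 6 h and 1.58-fold at 18 h. Psmd6 read 207, 333, 321 and 217, 1.61-fold and 1.55-fold higher. Psmd11 and Psmd6 were thus the lid genes with their highest value at 6 h. Psmd13 read 175, 176, 269 and 158, 1.01-fold higher at 6 h and 1.53-fold at 18 h, the latest of the lid genes. Psmd8 was 1.54-fold higher at 18 h. Psmd12 was at the floor in unexposed lung and read 99.9, 123 and 80.9 units after exposure, at least 1.58-fold higher at 18 h; it entered the comparison only through the exposed pools.

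Psmd11 has 3 probe sets above the floor, and they disagreed. A dimmer one read 130, 225, 221 and 134, with log2 differences of 0.80 and 0.77 at 6 and 18 h, close to the brightest. The third, whose suffix marks a relaxed probe choice, read 301, 232, 179 and 157, with differences of -0.37 and -0.75. The mean over the 3 probe sets gave 0.46 at 6 h and 0.22 at 18 h.

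In the base, beside the ATPases, Psmd1, a scaffold that docks ubiquitin receptors, read 212, 333, 354 and 223 units and was 1.57-fold and 1.67-fold higher at 6 and 18 h. Psmd4, a ubiquitin receptor, read 635, 697, 938 and 588, 1.10-fold and 1.48-fold higher. The chaperones that assemble the base and leave it before it works were lower or near unexposed lung at 6 h. Psmd9 read 181, 149, 178 and 157, 1.22-fold lower at 6 h, by a probe set whose suffix marks a relaxed probe choice. Psmd5 read 216, 204, 293 and 191, 1.06-fold lower at 6 h and 1.36-fold higher at 18 h. Psmd10 was at or near the floor, at 73.9, 58.9, 78.2 and 88.3, and entered only through the 18 and 90 h pools. Psmd5 and Psmd9 stayed within 1.5-fold of unexposed lung in every pool, and Psmd10 was too near the floor to tell. Of the compared non-ATPase genes, chaperones included, 9 of 13 were at least 1.5-fold higher at 18 h and 6 of 12 at 6 h. Of all genes, 6.79% and 7.16% were. The medians of the non-ATPase genes were 0.63 and 0.50.

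The activators cap the core in place of the 19S particle and open it without ubiquitin. Psme1, which forms with Psme2 the activator induced by interferon-gamma, read 400 units in unexposed lung, 276 at 6 h, 495 at 18 h and 416 at 90 h. It was 1.45-fold lower at 6 h and 1.24-fold higher at 18 h, so it shared the low 6 h value of the immunoproteasome genes but not their low 18 h value. The probe sets for Psme2 carry a second symbol, Psme2b, and lie outside the rule. The brighter one read 575, 377, 627 and 592, with log2 differences of -0.61, 0.12 and 0.04, lowest at 6 h and highest at 18 h as Psme1 was. The dimmer one read 128, 193, 168 and 147, with 0.60, 0.39 and 0.20, in the opposite direction at 6 h. Psme3, which forms the nuclear activator, read 111, 160, 173 and 106, and was 1.45-fold and 1.57-fold higher at 6 and 18 h. Psme4, a large single-chain activator of the nucleus, read 111, 166, 141 and 124, just under 1.5-fold higher at 6 h, and 1.26-fold higher at 18 h. Psme3 and Psme4 are dim, and a higher floor, at the 60th percentile, took their 6 h log2 differences of 0.53 and 0.58 to 0.22 and 0.27 and those at 18 h from 0.65 and 0.34 to 0.33 and 0.030. Psme3ip1, matched by its symbol alone, read 169, 224, 160 and 169, and Psmc3ip was at the floor on all arrays.

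**Figure D3:**
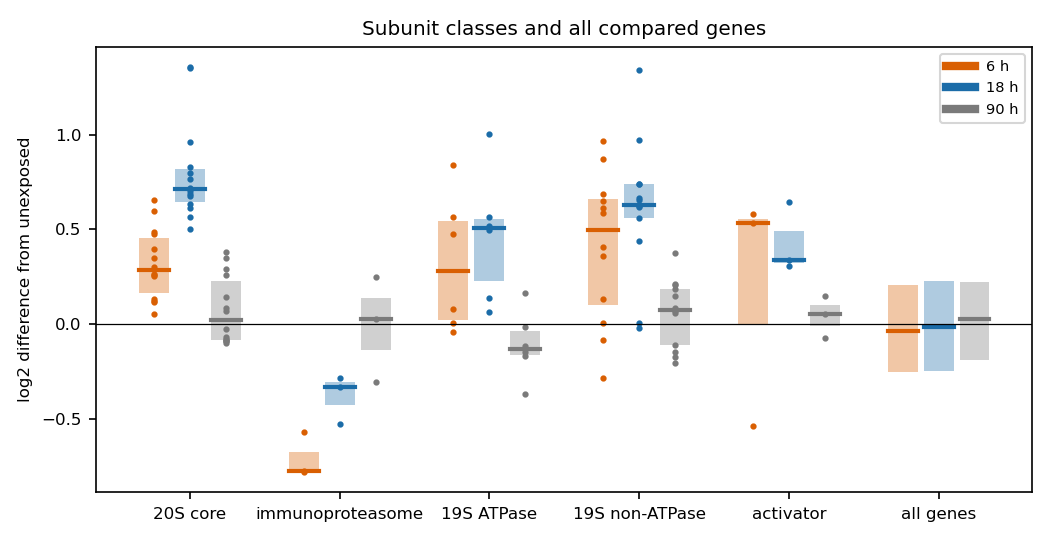
Log2 difference from the unexposed pool (vertical axis) for the compared genes of each subunit class and for all compared genes, at 6 h (orange), 18 h (blue) and 90 h (grey); points are genes, thick lines medians and boxes the quartiles over genes, not an error over replicates, and for all genes only the median and quartiles are drawn. The 18 h median of the 20S core, 0.71, lies above the upper quartile of all genes, 0.23, and the immunoproteasome medians at 6 and 18 h lie below 0.

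From 6 to 18 h, 35 of 39 compared subunits were higher, against 49.4% of all genes, and 4 were at least 1.5-fold higher, against 5.34%. Without scaling, 7 were. The 4 were Psmb3 at 2.06-fold, past 2-fold as were 1.18% of all genes, Psma5 at 1.83-fold, Psme1 at 1.79-fold and Psmd13 at 1.53-fold. The step between the 2 times was larger in the core, with a median of 0.45, than in the ATPases at 0.13 and the non-ATPase genes at 0.26. Expressed as the share of the 18 h log2 difference that was present at 6 h, the 12 core genes at least 1.5-fold higher at 18 h had a median of 36.3%, from 17.2% for Psmb6 to 94.3% for Psma6. The 8 such non-ATPase genes measured on both arrays had a median of 72.3%, from 1.32% for Psmd13 to 147% for Psmd11. The ranges overlap, and with 1 array for each time the difference between the classes has no test. The genes were chosen by the same 18 h value that divides the share. An error that raised that value on the 18 h array would lower the share.

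From 18 to 90 h, 35 of 39 subunits were lower, against 47.0% of all genes, and 24 were at least 1.5-fold lower, against 3.98%. Psma5 and Psmb3 were 2.14-fold and 2.08-fold lower, the 2 subunits past 2-fold, as were 0.954% of all genes. Psmd14 was 1.95-fold lower, Psmb2 1.83-fold and Psmc1 1.82-fold. In the other direction, Psmb9 was 1.71-fold higher at 90 h than at 18 h, the 1 subunit past 1.5-fold, against 3.68% of all genes, and Psmb8 was 1.24-fold higher. Of the 22 measured subunits at least 1.5-fold higher at 18 h, the median share of the 18 h difference left at 90 h was 12.6%. Here too the genes were chosen by the 18 h value that divides the share, which can lower it. The largest shares were 41.9% for Psmb1 and 39.4% for Psmb7.

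The 18 h pool held the highest of the 4 values for 30 of 39 subunits, 76.9%, against 21.4% of all genes. They comprised 14 of 14 core genes, 5 of 6 ATPases, 9 of 13 non-ATPase genes and 2 of 3 activators. Values increased from unexposed through 6 to 18 h for 27 of 39 subunits, against 16.1% of all genes. For 13 of 39 the full order was unexposed, 90 h, 6 h and 18 h from lowest to highest, against 4.57% of all genes. The array's 3' control probe set for Gapdh, a glycolytic enzyme, had its highest value in the same pool, at 1859, 2105, 2973 and 2000 units. Its part in the 18 h values was not tested, and the median of 27 compared cytosolic ribosomal protein genes was -0.02 at 18 h.

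Of 12 genes that regulate the subunits, 12 were compared at 6 h and 10 at 18 h. Nfe2l1, which encodes NRF1, read 565, 548, 529 and 580 units, within 1.07-fold of unexposed lung in every pool. Nfe2l2, which encodes NRF2, read 410, 383, 639 and 488 and was 1.56-fold higher at 18 h, the pool where most subunits were highest. Mafk, a small MAF protein that pairs with both factors, read 252, 395, 261 and 207, 1.57-fold higher at 6 h. Nfya, a subunit of the factor that binds CCAAT boxes, read 117, 71.9, 139 and 119, and was at least 1.51-fold lower at 6 h, where it lay under the floor. The median log2 difference of the list was 0.09 at 6 h and 0.09 at 18 h. At 6 h, Mafk alone was at least 1.5-fold higher and Nfya alone lower, against 7.16% and 6.06% of all genes. At 18 h, Nfe2l2 alone was at least 1.5-fold higher and none lower, against 6.79% and 6.11%. NRF1 and NRF2 are controlled largely as proteins, which arrays do not show. The part of these regulators in the subunit values was not tested.

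Target genes of NRF2 outside the proteasome had a median log2 difference of 0.29 at 6 h over 19 genes, 0.68 at 18 h over 18 and -0.08 at 90 h over 16, beside 0.33, 0.63 and 0.05 for the subunits. At least 1.5-fold higher were 7 of them at 6 h and 11 at 18 h, against 7.16% and 6.79% of all genes. Gclc, the catalytic subunit of glutathione synthesis, read 213, 1496, 501 and 255 units, 7.03-fold higher at 6 h and 2.35-fold at 18 h. Txnrd1, a thioredoxin reductase, read 170, 904, 329 and 176. Both were highest at 6 h, where 6 of 19 compared NRF2 targets were at least 2-fold higher and 0 of 38 subunits were, against 2.17% of all genes. Among the 6, Gclm and Srxn1 were under the floor in unexposed lung and entered only through the exposed pools. Of the 19 genes of the list above the floor on any array, 11 had their highest value at 6 h, as did 24.8% of all genes, 5 at 18 h, as did 21.4%, and 3 in unexposed lung. The 5 were Taldo1 and Tkt, enzymes of the pentose phosphate pathway, the glutathione transferase genes Gsta4 and Mgst1, and Me1, a malic enzyme. Taldo1 read 214, 258, 411 and 251, and Tkt read 428, 471, 684 and 491.

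Genes of proteins that assemble or dock on the proteasome had a median log2 difference of 0.01 at 6 h and 0.25 at 18 h. The 6 h median depends on the probe sets used, and was 0.47 over 8 genes without suffix-marked probe sets. Of the genes of this list 2 of 10 were at least 1.5-fold higher at 6 h and 3 of 11 at 18 h, against 7.16% and 6.79% of all genes. At both times 0 were lower, against 6.06% and 6.11%. Zfand2a, an arsenite-induced protein that associates with the proteasome, read 108, 274, 198 and 124 units, 2.54-fold higher at 6 h and 1.83-fold at 18 h. Txnl1, a thioredoxin bound to the 19S particle, read 115, 226, 214 and 145, 1.97-fold and 1.86-fold higher. Ecpas, which tethers the 19S particle to the core, read 104, 154, 163 and 152, and was 1.46-fold higher at 90 h. Pomp, the chaperone of core assembly, read 482, 479, 636 and 417, 1.32-fold higher at 18 h and near the unexposed level at 6 h. Usp14 and Uchl5, deubiquitinases of the 19S particle, were within 1.08-fold of unexposed lung at 6 and 18 h.

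Ubiquitin genes and the conjugating enzymes upstream of the proteasome had medians of 0.12 at 6 h and 0.23 at 18 h over 22 genes. The 6 h pool had 4 of them 1.5-fold or more above unexposed lung and 2 below, against 7.16% and 6.06% of all genes. The 18 h pool had 2 above and 1 below, against 6.79% and 6.11%. Cdc34, a ubiquitin-conjugating enzyme, was under the floor in unexposed lung and read 146, 161 and 110 after exposure, at least 1.88-fold and 2.07-fold higher at 6 and 18 h. Ube2k, an enzyme that builds ubiquitin chains, read 106, 198, 168 and 112, and was 1.87-fold higher at 6 h. Cul2, a scaffold of ubiquitin ligases, read 186, 86.7, 217 and 195, 2.14-fold lower at 6 h. Among 8 compared genes that deliver substrates, with medians of 0.07 and 0.26, Rad23b, a shuttle for ubiquitin chains, read 105, 204, 165 and 148 and was 1.94-fold higher at 6 h. Vcp, the ATPase that extracts substrates from membranes and complexes, read 561, 663, 828 and 593, and was 1.48-fold higher at 18 h. The cytosolic chaperonin, another complex of many subunits, had a median of 0.06 at 6 h and 0.40 at 18 h. All 8 of its genes were above unexposed lung at 18 h, against 48.2% of all genes. Cct3 alone was at least 2-fold higher, against 1.59%.

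**Figure D4:**
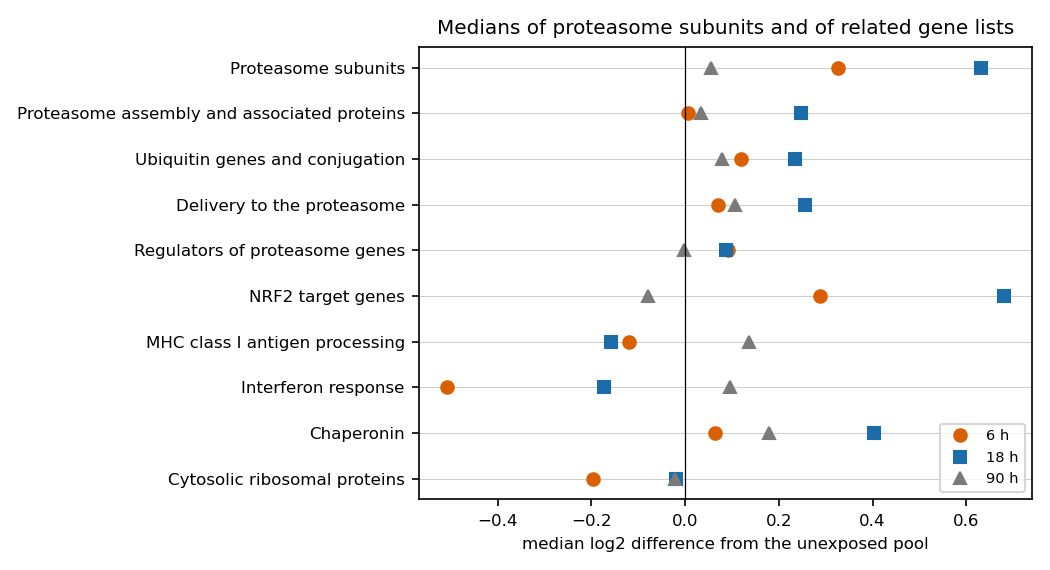
Median log2 difference from the unexposed pool (horizontal axis) over the compared members of the proteasome and of 9 related gene lists (rows), at 6 h (circles), 18 h (squares) and 90 h (triangles), with no error bar because each pool is 1 array. The 18 h median is 0.63 for proteasome subunits, 0.68 for NRF2 targets, 0.40 for the chaperonin and at most 0.26 for the other lists, and the interferon list lies furthest to the left at 6 h, at -0.51.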

How the data were processed

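The authors deposited linear intensities, 1 value for each probe set on each of 4 arrays; the software that made them is not given in the sources used here. Of 12488 probe sets 66 were controls, 10833 had 1 symbol in the platform annotation, 396 had several and 1193 were not listed; updating through gene identifiers changed 0 symbols. Arrays were scaled by their mean after trimming 2% at each end. Before log2, values below 77.7 units, the 40th percentile over all arrays, were raised to that floor. A gene is its probe set of highest mean, compared if above the floor on at least 1 of 2 arrays; with 1 array at the floor, the fold is a lower bound ("at least"). Thresholds were 1.5-fold and 2-fold. With 1 array per group no test was made, and the number of arrays limits precision. The members and gene lists were chosen with earlier results of these data known. Any member could be named, with every array's value for catalytic, immune and activator subunits and the 5 highest and 5 lowest per comparison, as could up to 4 genes per list with the largest differences. Pomp, Usp14, Uchl5, Nfe2l1, Irf1, Taldo1, Tkt, Vcp and cell type genes were named after their values were seen, and Psme3ip1 was set apart after the files were seen. Code was tested on simulated data. There were 9 alternatives: no scaling, 3 other scalings, 3 treatments of low values and 2 of probe sets. Python 3.11.15, numpy 2.4.6, pandas 2.3.3, R 4.3.3 and limma 3.58.1 (quantile and cyclic loess normalization) were used.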

Additional observations from a re-analysis of the deposited data

How the results depend on the processing

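Under 9 alternatives the count of subunits at least 1.5-fold higher at 18 h stayed between 16 and 29 (23 as reported), and the count with their highest value at 18 h between 25 and 31 (30 as reported). The count at least 1.5-fold higher at 6 h was 9 as reported, 15 unscaled and 4 with a pseudocount of 50 units, and that at least 1.5-fold lower was 2, or 1 under a 60th percentile floor. At 2-fold, 0 were higher or lower at 6 h as reported, but 1 was higher unscaled and 1 lower with the floor at the 25th percentile. From 6 to 18 h, 4 were at least 1.5-fold higher, 7 unscaled, and the 1 at 2-fold was 0 under cyclic loess and with the pseudocount. From 18 to 90 h, the 1 subunit at least 1.5-fold higher was 0 with the 60th percentile floor and also with the pseudocount, which took the 2 subunits at least 2-fold lower to 0. Among medians, that of the activators at 6 h went from 0.53 to 0.22 under a 60th percentile floor, and that of the immunoproteasome from 6 to 18 h from 0.25 to 0.50 under a 25th percentile floor. The ATPase median at 90 h changed sign unscaled, from -0.13 to 0.012. From 6 to 18 h, the delivery list went from 0.21 to -0.047 with the mean over probe sets, and the regulators from -0.16 to 0.00851 under a 60th percentile floor. The 6 h median of the assembly list went from 0.01 to 0.47 without suffix-marked probe sets. Psmb5 from 18 to 90 h went from -0.59 to 0.13 without suffix-marked probe sets, which leaves its dimmer probe set. The cause of the other changes was not tested. No paired analysis was possible because each group is 1 array and the labels give no replicate numbers.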
